A study of Mus musculus with 9 samples.

Results

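The 9 Krüppel-like factor (KLF) genes Klf2, Klf3, Klf4, Klf6, Klf7, Klf9, Klf10, Klf11 and Klf13 were followed in CD31+ bone marrow cells, sorted as endothelial cells, that carried Sca-1 or lacked it. They were chosen by gene name and are 9 of the 46078 genes in the deposited count table. The study sorted CD45-Ter119-CD31+ cells from the bone marrow of wild type B6 mice into a Sca-1+ and a Sca-1- fraction (Sca-1high and Sca-1low endothelial cells in its terms). RNA-seq libraries were made from 4 Sca-1+ samples (libraries 7, 13, 15 and 19, after the end numbers of their labels) and 5 Sca-1- samples (libraries 8, 10, 14, 16 and 22). No treatment and no age is given for these samples, and all are labelled wild type. The titles of Sca-1- libraries 10, 14 and 22 and of Sca-1+ library 13 also carry a CD452 or like tag that those of the others lack, so this tag was spread unevenly over the fractions. Sca-1+ library 15 and Sca-1- library 16 share a number before the tag wt in their titles that may mark the same mouse, and for the others the labels do not say whether each came from its own mouse, so p-values measure the spread between these libraries, part of which may be technical. The 2 fractions also carry different blocks of running numbers in their labels, so a difference between those blocks and a difference between the fractions cannot be told apart.

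KLF proteins bind GC-rich and CACCC-type DNA through zinc fingers at their carboxy terminus and act as activators or repressors. In endothelium, laminar shear stress acts through the MEKK3-MEK5-ERK5-MEF2 cascade to raise Klf2 and Klf4, whose products raise nitric oxide synthase and thrombomodulin and restrain adhesion molecules. Klf3, a repressor that recruits CtBP, Klf6, an early gene of injury and remodelling, and Klf7, a relative of Klf6, form other branches. Klf9 and Klf13 belong to the branch that recruits Sin3A and Klf9 responds to glucocorticoids, while Klf10 and Klf11 are early genes of TGF-beta signalling that also recruit Sin3A.

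Total counts per library were 23058385 to 24657204 in Sca-1+ and 21581653 to 25959818 in Sca-1-, so that a floor of 3 counts lay at 0.0996 to 0.209 CPM, counts scaled to a common library total, and every KLF gene was above it in every library. Levels are CPM scaled by TMM, a normalization that assumes most genes do not differ, and its factors were 1.12 to 1.22 in Sca-1+ against 0.581 to 1.16 in Sca-1-, lowest in Sca-1- libraries 10 and 8. Ly6a, which encodes Sca-1, averaged 1133 ± 187 CPM (SD, n = 4) in Sca-1+ and 0.678 ± 0.524 CPM (SD, n = 5) in Sca-1-. Pecam1, which encodes CD31, was at 1137 to 1760 CPM in Sca-1+ and 334 to 1701 CPM in Sca-1-. Defining endothelial markers were low in the Sca-1- libraries although their label names endothelial cells. Cdh5, which encodes VE-cadherin, averaged 7.14 ± 3.92 CPM there against 264 ± 27.2 CPM in Sca-1+, and the platelet factor Pf4 averaged 6632 ± 2491 CPM against 14.3 ± 6.94 CPM. The 16 genes of a megakaryocyte list summed to 27382 to 119538 CPM in Sca-1- and 45 to 96.3 CPM in Sca-1+. A list of 25 general endothelial genes summed to 1309 to 2773 CPM in Sca-1- and 17987 to 21967 CPM in Sca-1+. In such bulk samples fewer cells of a type and less RNA per cell cannot be told apart.

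The sequence before the start of 4 members is shown because the results turn on them: Klf2, Klf4 and Klf9 as genes that differed between the fractions and Klf6 as the one with the highest level that did not. They are RefSeq sequences of GRCm38.p6, in transcription direction and 5′ to 3′, and capitals mark matches to the MEF2 motif in Klf2 and to the forkhead letters GTAAACA and the AP-1 letters TGANTCA in Klf9.
Klf2, chr8:72318812-72319032, strand +: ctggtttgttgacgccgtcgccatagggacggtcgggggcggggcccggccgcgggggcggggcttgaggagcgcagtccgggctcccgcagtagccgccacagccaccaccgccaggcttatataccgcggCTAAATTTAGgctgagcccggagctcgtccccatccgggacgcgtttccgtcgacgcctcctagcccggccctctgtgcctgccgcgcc
Klf4, chr4:55532476-55532725, strand -: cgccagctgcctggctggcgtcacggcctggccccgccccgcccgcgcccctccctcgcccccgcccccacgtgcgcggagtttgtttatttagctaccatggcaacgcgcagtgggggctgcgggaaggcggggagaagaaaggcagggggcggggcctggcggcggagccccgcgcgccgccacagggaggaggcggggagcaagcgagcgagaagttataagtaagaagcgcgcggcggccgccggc
Klf6, chr13:5861239-5861481, strand +: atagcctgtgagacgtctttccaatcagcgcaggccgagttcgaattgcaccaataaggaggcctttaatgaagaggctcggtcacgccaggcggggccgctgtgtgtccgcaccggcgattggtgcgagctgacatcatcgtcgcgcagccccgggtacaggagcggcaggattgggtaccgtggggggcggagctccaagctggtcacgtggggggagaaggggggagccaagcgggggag
Klf9, chr19:23140976-23141225, strand +: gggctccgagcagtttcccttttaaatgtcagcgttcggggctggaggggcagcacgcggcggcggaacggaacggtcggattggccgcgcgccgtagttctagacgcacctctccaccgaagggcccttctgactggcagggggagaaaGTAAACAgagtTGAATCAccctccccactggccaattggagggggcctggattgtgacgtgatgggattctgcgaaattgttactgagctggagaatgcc
The MEF2 match of Klf2 began 118 bases before the RefSeq start. Of 8 member promoters searched over 250 bases on both strands (Klf10 is named only), 1 held a MEF2 match, and so did 2.92% of 32851 RefSeq promoters of the same length. The GC box letters GGGCGG occurred in 7 of the 8 and in 32.7% of all promoters, and the CACCC letters in 5 of the 8 and in 52.0% of all. The forkhead letters occurred in Klf9 alone of the 8 and in 3.17% of all, and the AP-1 letters likewise in Klf9 and in 6.75% of all. No member held the CArG box, the letters TGACGTCA or the letters TATAAA, which occurred in 1.47%, 1.55% and 12.4% of all promoters. The 8 member promoters were 59.2% to 78.4% G and C, and the median of all promoters was 52.4%. Different motifs could overlap in this count, and a match is a description of letters.

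Klf2 and Klf4 were both higher in Sca-1+ cells, by 7.12-fold and 12.9-fold on the TMM scale. Klf2, the best known flow-responsive factor of endothelium (ENSMUSG00000055148, chr8:72319033-72321656), was at 504, 543, 359 and 1016 CPM in Sca-1+ libraries 7, 13, 15 and 19. It was at 96.3, 100.2, 82.5, 60.1 and 85.8 CPM in Sca-1- libraries 8, 10, 14, 16 and 22. Library 19 stood above the other Sca-1+ libraries, and every Sca-1+ library was above every Sca-1- library. Klf2 averaged 605 ± 285 CPM over the 4 Sca-1+ and 85 ± 15.7 CPM over the 5 Sca-1- libraries (SD), for a log2 fold change of 2.83 (SE 0.32, adjusted p = 0.000109 by edgeR's quasi-likelihood test over 15937 genes). Klf4, the second shear-responsive factor (ENSMUSG00000003032, chr4:55527143-55532466), was at 124, 113, 138 and 210 CPM in the Sca-1+ libraries and at 15.1, 3.91, 9.04, 15.8 and 12.6 CPM in the Sca-1- libraries, in the same order. Here too library 19 was highest and the fractions did not overlap, and Sca-1- library 10 was lowest. The means were 146 ± 43.7 CPM (n = 4) and 11.3 ± 4.90 CPM (n = 5), with a log2 fold change of 3.69 (SE 0.40, adjusted p = 8.5e-05, edgeR). Klf2 exceeded Klf4 in every library when counts were divided by exon length, by 4.29 to 7.98 times in Sca-1+ and by 6.28 to 42.3 times in Sca-1-, the latter with its maximum in library 10.

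Klf10, Klf9 and Klf11 were higher in Sca-1+ as well, by 3.41-fold, 2.93-fold and 2.94-fold on the TMM scale. Klf10, an early gene of TGF-beta (ENSMUSG00000037465, chr15:38291463-38300706), was at 316, 262, 289 and 441 CPM in Sca-1+ and at 90.5, 51.5, 103, 118 and 115 CPM in Sca-1-. No libraries of the fractions overlapped, and the log2 fold change was 1.77 (SE 0.28, adjusted p = 0.000639, edgeR). Klf9, the glucocorticoid-responsive member (ENSMUSG00000033863, chr19:23141226-23168134), was at 118, 101, 102 and 204 CPM in Sca-1+ and at 44.3, 57.0, 37.9, 35.2 and 48.9 CPM in Sca-1-. Its log2 fold change was 1.55 (SE 0.26, adjusted p = 0.000934, edgeR), and the lowest Sca-1+ library was still above the highest Sca-1- library. Klf11, a relative of Klf10 (ENSMUSG00000020653, chr12:24651274-24662789), was at 53.1, 57.6, 54.9 and 129 CPM in Sca-1+ and at 34.1, 20.9, 9.63, 25.2 and 35.1 CPM in Sca-1-. The other Sca-1+ libraries lay close together and library 19 lay far above them. The log2 fold change of Klf11 was 1.56 (SE 0.41, adjusted p = 0.0105, edgeR), and 1.15 without library 19. With only the 6 libraries that carry consecutive end numbers (7 and 8, 13 and 14, 15 and 16) the Klf11 difference was 1.26 with adjusted p = 0.068 (edgeR), and 1.43 with adjusted p = 0.0709 when these were also treated as pairs.

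Klf13, Klf3, Klf6 and Klf7 overlapped between the fractions and did not pass the test. Klf13, the Sin3A-recruiting relative of Klf9 (ENSMUSG00000052040, chr7:63886351-63938915), was at 188, 250, 119 and 275 CPM in Sca-1+ and at 150, 180, 121, 135 and 89.5 CPM in Sca-1-. Its difference was 0.62 in log2 (SE 0.29, 95% interval -0.014 to 1.26, adjusted p = 0.102, edgeR). Sca-1+ library 15 was the lowest of its fraction, so leaving it out raises the difference, which was then 0.82 with adjusted p = 0.0413 (edgeR). Without any other single library the difference was 0.46 to 0.68 and did not pass the test (adjusted p = 0.0889 to 0.295, edgeR). Klf6, an early gene with a role in vascular remodelling (ENSMUSG00000000078, chr13:5861482-5870394), was at 626, 679, 636 and 1167 CPM in Sca-1+ and at 1639, 2279, 603, 354 and 501 CPM in Sca-1-. Sca-1- libraries 8 and 10 were above every other library and Sca-1- libraries 14, 16 and 22 were below every Sca-1+ library. The difference over all 9 libraries was -0.47 in log2 (SE 0.55, 95% interval -1.69 to 0.75, adjusted p = 0.515, edgeR).

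Klf3 and Klf7 divided the Sca-1- libraries in the same way as Klf6, except that Klf7 in library 8 lay below Sca-1+ library 19. Klf3, the CtBP-recruiting repressor (ENSMUSG00000029178, chr5:64803388-64832901), was at 149, 159, 119 and 188 CPM in Sca-1+ and at 251, 362, 111, 101 and 74.6 CPM in Sca-1-. Its difference was -0.23 in log2 (SE 0.45, 95% interval -1.22 to 0.77, adjusted p = 0.706, edgeR). Klf7, the relative of Klf6 (ENSMUSG00000025959, chr1:64029447-64122282), was at 139, 166, 127 and 194 CPM in Sca-1+ and at 180, 283, 111, 102 and 75 CPM in Sca-1-, a difference of 0.06 (SE 0.37, 95% interval -0.76 to 0.88, adjusted p = 0.910, edgeR). Libraries 8 and 10 were the highest of the Sca-1- fraction for all of Klf3, Klf6 and Klf7, and they also had the highest megakaryocyte sums (94248 and 119538 CPM, against 27382 to 56432 CPM in the other Sca-1- libraries) and the lowest TMM factors. The part of these in the result was not tested. In CPM without TMM factors, libraries 8 and 10 stayed the highest of the Sca-1- fraction for these genes, but less clearly. Klf7 was then at 121 in library 8 and 118 in library 16, and Klf6 at 1099 in library 8 and 1307 in Sca-1+ library 19. Without libraries 8 and 10, a choice made after seeing these values, the log2 differences were 0.68 for Klf3, 0.70 for Klf7 and 0.67 for Klf6. Libraries 14, 16 and 22 lay below every Sca-1+ library for these genes, so the choice fixed that direction and no test is given. Exons of Klf3 overlap those of Gm20033 over 404 bases on the opposite strand, and exons of Klf7 overlap those of Gm13748 and Gm26649 over 3200 bases. The use of strand in counting is not given in the sources used here, so reads from these stretches cannot be told apart, and the partners held 104 to 532, 60 to 167 and 35 to 339 counts per library.

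**Figure D1:**
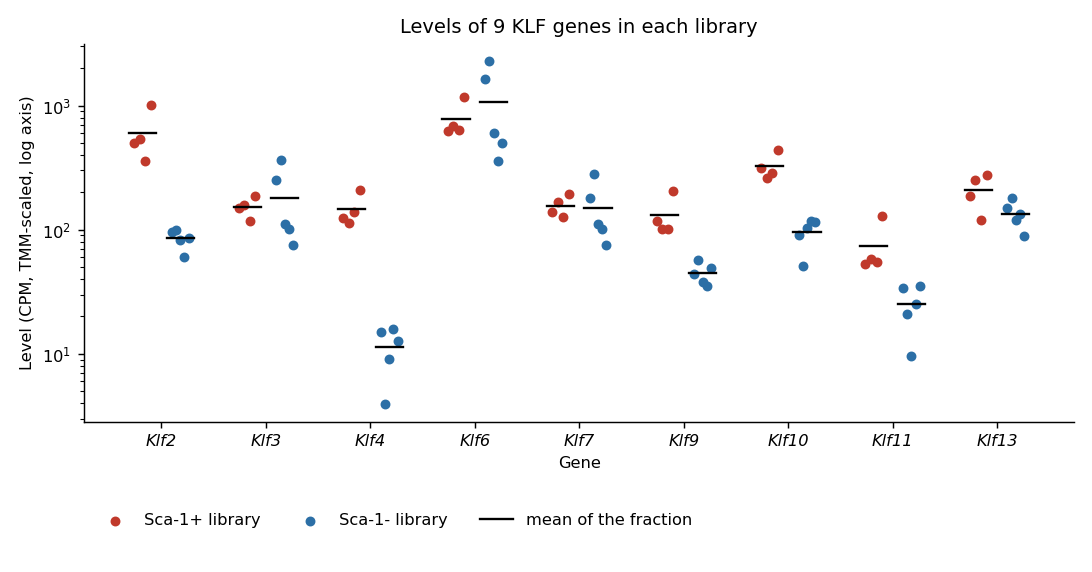
Level of each KLF gene in each library in TMM-scaled CPM on a log axis, with points for the 4 Sca-1+ and 5 Sca-1- libraries and a bar at each fraction's mean. The fractions are apart for Klf2, Klf4, Klf9, Klf10 and Klf11 and overlap for Klf3, Klf6, Klf7 and Klf13, and libraries 8 and 10 are the highest Sca-1- points for Klf3, Klf6 and Klf7.

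On the TMM scale 5 of the 9 KLF genes were called higher in Sca-1+ and 0 were called lower, while with scaling to general endothelial genes 0 were called higher and 7 were called lower, where 83.6% of all genes were called lower. Over all genes tested 44.8% were called in either direction, 23.3% higher and 21.4% lower in Sca-1+, and for 24.8% every Sca-1+ library was above every Sca-1- library. Among the 4074 genes with an average level at or above that of Klf11, the lowest KLF gene here, 25.5% were called higher. The 9 genes are too few, and were chosen with such values known, for that comparison to be more than a description. Sca-1+ library 19 had the highest level of its fraction for each of the 9 genes, with a summed level of 3822 CPM against 1942 to 2330 CPM in the other Sca-1+ libraries. It also had the highest sum of the immediate-early and stress list (43278 CPM against 23968 to 29626 CPM) and of the neutrophil list (820 CPM against 11.5 to 125 CPM), and the part of either in the KLF levels was not tested. Without library 19 the log2 differences were 2.47 for Klf2, 3.47 for Klf4, 1.60 for Klf10, 1.26 for Klf9 and 1.15 for Klf11, and all of these stayed past the threshold (edgeR).

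The order of the KLF genes by level differed between the fractions when CPM were divided by exon length in kilobases. In Sca-1+ the order ran from Klf2 at 328 ± 154 (SD, n = 4) through Klf6 at 177 ± 59.4, Klf10 at 78.2 ± 18.9 and Klf4 at 48.0 ± 14.3, and each of these was above the next in 4 of 4 libraries. Klf13 at 27.6 ± 9.25 and Klf9 at 27.2 ± 10.2 did not differ beyond their spread, and the lowest were Klf7 at 19.3 ± 3.66, Klf11 at 17.0 ± 8.49 and Klf3 at 13.7 ± 2.54 CPM per kilobase. In Sca-1- Klf6 led at 245 ± 192 (SD, n = 5) and was above Klf2, at 46.0 ± 8.50, in 5 of 5 libraries. Klf10 at 22.9 ± 6.48, Klf7 at 18.5 ± 10.3, Klf13 at 17.9 ± 4.45 and Klf3 at 16 ± 10.9 followed, and each was above the next in 3, 2 and 3 of 5 libraries, so that their order was not clear. Klf9 at 9.27 ± 1.82, Klf11 at 5.76 ± 2.41 and Klf4 at 3.70 ± 1.61 CPM per kilobase closed the order. Klf4 thus stood at place 4 of 9 in Sca-1+ and at place 9 in Sca-1-.

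Shares within the family do not depend on how libraries are scaled. Klf2 was 43.5% ± 4.90 (SD, n = 4) of the summed level per length in Sca-1+ and 14.1% ± 5.05 (SD, n = 5) in Sca-1-, with ranges of 36.7% to 48.3% and 7.81% to 19.5%. The difference of 29.4 percentage points had p = 0.0079 in a two-sided exact permutation test over the 126 splits of 9 libraries, the smallest p these can give, in a set of 9 such comparisons that is not adjusted. Klf6 went the other way, with 24.3% ± 2.06 (n = 4) in Sca-1+ and 57.2% ± 14.6 (n = 5) in Sca-1- (exact permutation p = 0.0159). The ratio of Klf2 to Klf6 per length was 1.34 to 2.07 in the Sca-1+ libraries and 0.105 to 0.407 in the Sca-1- libraries. Klf4 held 6.71% ± 1.27 (n = 4) against 1.32% ± 0.907 (n = 5) (exact permutation p = 0.0079). The shares of Klf3 (1.94% ± 0.326 against 3.98% ± 0.740) and Klf7 (2.73% ± 0.458 against 4.92% ± 0.966) were lower in every Sca-1+ library than in any Sca-1- library (exact permutation p = 0.0159 for each, n = 4 and 5). The shares of Klf9, Klf10, Klf11 and Klf13 overlapped between the fractions (exact permutation p = 0.262, 0.349, 0.556 and 0.222, n = 4 and 5), although the first 3 of these genes passed the test on their TMM-scaled levels. Because shares of a sum are bound to each other, a rise of one lowers the others, and these comparisons are not independent.

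**Figure D2:**
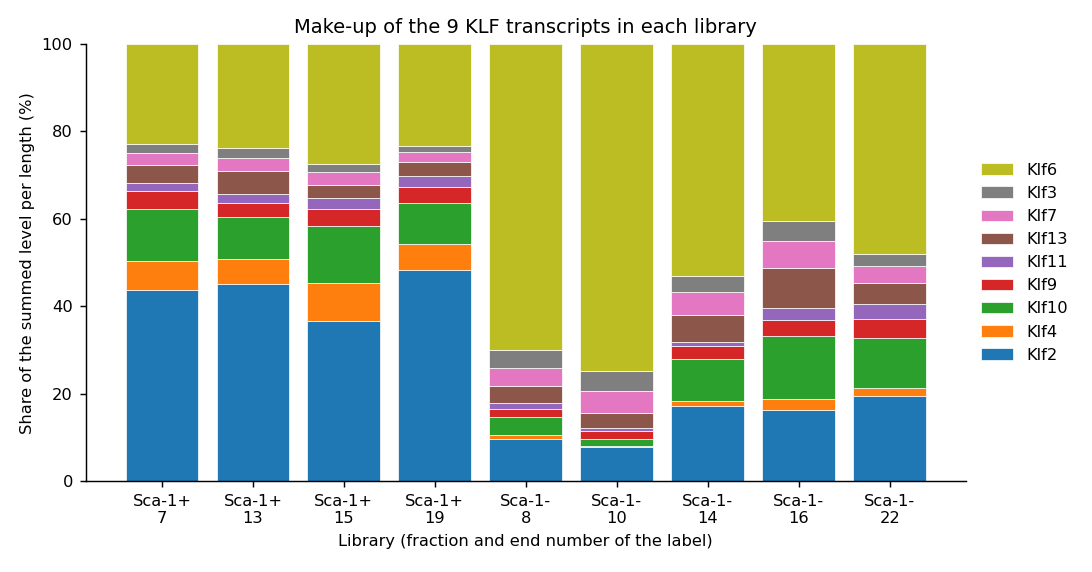
Share of each KLF gene in the summed level per exon length of the 9 KLF genes, in percent, for each library. Klf2 makes up 36.7% to 48.3% of each Sca-1+ bar and Klf6 makes up 40.5% to 74.7% of each Sca-1- bar.

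The direction of the KLF differences depended on what the libraries were scaled to. The median log2 fold change of all genes tested was 0.07 with TMM, 0.43 with library size alone and -3.51 with size factors taken from the 25 general endothelial genes, under which 85.4% of all genes were called and 83.6% were called lower in Sca-1+. Under that scaling Klf4 differed by 0.056 (adjusted p = 0.921) and Klf2 by -0.65 (adjusted p = 0.0957), so neither passed the test, against the median of -3.51 (edgeR). The 25 general endothelial genes themselves had a median of 1.09 under it, with 9 called higher and 1 lower. Klf2 and Klf4 were thus above the median of all genes and below that of the endothelial list. Klf10 at -1.87, Klf9 at -1.95 and Klf11 at -1.98 were called lower in Sca-1+ (adjusted p = 0.00157, 0.000169 and 0.00323, edgeR) although they were called higher with TMM. Klf13 at -2.85, Klf7 at -3.31, Klf3 at -3.56 and Klf6 at -3.74 were near the median of all genes. Counts of Klf2 were 1.74% to 5.65% of the counts of the endothelial list in the Sca-1+ libraries and 3.61% to 6.12% in the Sca-1- libraries. The same ratio for Klf4 was 0.565% to 1.17% and 0.141% to 1.21%. Both ratios overlapped between the fractions, and the part of non-endothelial cells in the Sca-1- counts of Klf2 and Klf4 was not tested. With library size alone the 5 KLF genes called with TMM kept their direction, Klf13 was also called (1.07, adjusted p = 0.0097, edgeR), and Klf3 and Klf6 turned to 0.39 and 0.19 without passing the test.

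**Figure D3:**
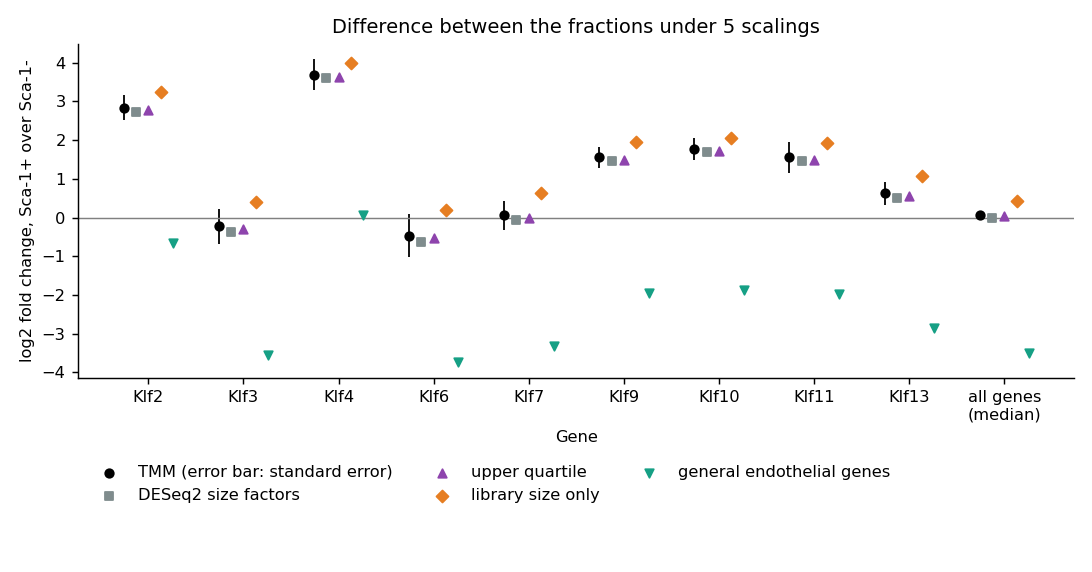
Log2 fold change of each KLF gene, Sca-1+ over Sca-1-, under 5 scalings of the libraries, beside the median of all genes tested, with the standard error drawn for TMM. Klf2 lies at 2.83 with TMM and at -0.65 with scaling to general endothelial genes, where the median of all genes lies at -3.51.

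Some KLF genes moved together from library to library within the fractions. After each fraction's mean log2 CPM was subtracted, Klf3 and Klf7 had a Pearson r of 0.99, Klf3 and Klf6 of 0.94 and Klf6 and Klf7 of 0.91 over the 9 libraries. Klf4 and Klf10 had r = 0.89 and Klf2 and Klf9 had r = 0.88, while Klf2 and Klf4 had r = 0.01. These correlations are descriptions over 9 points that share library, depth and scaling. Among 5396 genes with an average log2 CPM of at least 5, Gsk3b, Zc3h13 and Pxk were most like Klf3, Crebbp, Klf3 and Zc3h13 most like Klf7, and Yod1, Fam13b and Inpp5a most like Klf6, each with r of 0.98 or more. The genes most like Klf4 were Dock9 (0.99), Lima1 (0.96) and Tnfrsf12a (0.95), and those most like Klf10 were Smarca2, Ier5l and Pphln1 (0.97 to 0.98). Klf2 was most like Lyz2 (0.96), Sla (0.95) and Ubxn2a (0.95), Klf9 most like Lrrfip1, Nfatc1 and Sgms1 (0.94 to 0.95), Klf11 most like Meox2, Lifr and Snrk (0.91 to 0.93), and Klf13 most like Grk6, Nfix and Alox5ap (0.90 to 0.92). Likeness within the fractions says nothing of the difference between them. Lyz2, Sla and Ubxn2a had TMM log2 fold changes of -5.37, -10.0 and -1.40, opposite in sign to Klf2.

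The genes thought to act before Klf2 and Klf4 did not move as a block. Of 9 flow sensors and their partners, 6 were called higher and 1 lower in Sca-1+ with TMM, and 1 higher and 3 lower with scaling to general endothelial genes. Cdh5, the gene called higher there, and Kdr are themselves among the 25 general endothelial genes that set that scaling. Over all genes tested the shares were 23.3% higher and 21.4% lower with TMM and 83.6% lower with the other scaling. Cdh5, VE-cadherin, differed by 5.20 (SE 0.43, adjusted p = 2.6e-05, edgeR), and Kdr, the VEGF receptor of the same junction complex, rose from 60.4 ± 17.4 to 806 ± 125 CPM. Plxnd1, a guidance receptor that senses force, differed by 4.54, the calcium channel gene Trpv4 by 3.34 and Gnaq, a G protein subunit, by -2.20 in log2. Pecam1 differed by 0.74 (adjusted p = 0.247, edgeR) and did not pass the test. In the MEKK3-MEK5-ERK5-MEF2 cascade 2 of 7 genes tested were called higher and 1 lower with TMM, while with scaling to general endothelial genes all 7 were called lower, as were 83.6% of all genes. Map3k3, which encodes MEKK3, was at 79.4 ± 9.82 CPM in Sca-1+ and 17.5 ± 4.19 CPM in Sca-1-, a log2 fold change of 2.18 (SE 0.22, adjusted p = 5.8e-05, edgeR). Mapk7, which encodes ERK5 (0.96, adjusted p = 0.0613), and Mef2c (-0.33, adjusted p = 0.322) did not pass the test and are named after their values were seen. The calls of Map3k2 (1.03) and Mef2d (-1.15) were lost without any one of several single libraries, among them library 15, where their adjusted p was 0.0642 and 0.0958 (edgeR).

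The class IIa histone deacetylases, which hold MEF2 factors back, were split. Hdac4 and Hdac7 were higher in Sca-1+ by 1.58 and 1.34 in log2 with TMM and turned to -2.03 and -2.19 with scaling to general endothelial genes, while Hdac5 was lower by both (-2.55 with TMM, adjusted p = 0.00126, edgeR). Of the 7 genes of the CCM complex, which restrains MEKK3, 1 was called higher and 3 lower with TMM, and 0 higher and 6 lower with scaling to general endothelial genes. Of all genes tested, 23.3% were called higher and 21.4% lower with TMM, and 83.6% lower with the other scaling. Heg1, its membrane anchor, rose from 17.8 ± 8.18 to 131 ± 17.8 CPM with TMM. The kinase genes Stk26 (-5.59) and Stk24 (-3.57) and the gene Pdcd10 (-1.04), which encodes CCM3, were lower in Sca-1+, whereas Krit1 (-0.61) and Ccm2 (0.12) did not pass the test. The call of Pdcd10 was lost with library size alone (-0.55, adjusted p = 0.0552) and with consecutive end numbers as pairs (-0.85, adjusted p = 0.112, edgeR).

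Targets that KLF2 or KLF4 raise in endothelium and targets that they lower were both higher in Sca-1+ with TMM. Of 11 raised targets tested, 10 were called higher and 0 lower, with a median log2 fold change of 4.26 over the 11 genes against 0.07 over all genes tested. Of all genes tested, 23.3% were called higher with TMM, and 83.6% were called lower with scaling to general endothelial genes. Nos3, endothelial nitric oxide synthase, was at 141 ± 23.2 CPM in Sca-1+ (n = 4) and 3.58 ± 3.05 CPM in Sca-1- (n = 5), and Palmd, Slc9a3r2 and Gja4, a gap junction gene of arteries, differed by 5.40, 4.88 and 4.86. Of 8 lowered targets, 7 were called higher and 0 lower, with a median of 3.88. Icam1, Sele and Vcam1, the adhesion molecules of leukocyte entry, differed by 5.13, 5.12 and 4.47, and Edn1, the vasoconstrictor endothelin, by 4.24. With scaling to general endothelial genes, 2 of the raised targets were called higher and 3 lower (median 0.58), and 1 of the lowered targets was called higher and 3 lower (median 0.18). Tek, a raised target not called under this scaling, is itself among the 25 genes that set it. The 25 general endothelial genes had a median of 4.80 with TMM, and 24 of them were called higher. The part of endothelial content in the target lists was not tested.

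With TMM 4 of 10 corepressor genes and 0 of 7 ubiquitin ligase genes of KLF proteins were called in either direction, against 44.8% of all genes. Of the 10 corepressor genes 1 was called higher and 3 lower with TMM, and all 10 lower with scaling to general endothelial genes. The CtBP genes, partners of Klf3, went opposite ways with TMM: Ctbp2 was at 90.8 ± 13.2 CPM in Sca-1+ and 23.4 ± 5.66 CPM in Sca-1- (1.96, SE 0.23, adjusted p = 0.000121, edgeR), while Ctbp1 differed by -0.61, and Ctbp2 turned to -1.64 with scaling to general endothelial genes. Sin3b, a scaffold of the Sin3 complex, differed by -0.79 and Ncor1 by -0.83, and Sin3a at 0.20 did not pass the test. The call of Ctbp1 (adjusted p = 0.0307) was lost without library 7, 13, 15 or 22, with adjusted p = 0.0501 to 0.107 (edgeR), and the call of Sin3b was lost without library 13 or 19. With library size alone 0 of the 10 corepressors were called lower (Ncor1 -0.36, Sin3b -0.31, Ctbp1 -0.20), and 0 were called lower with consecutive end numbers as pairs. Of 7 ubiquitin ligase genes 0 passed the test with TMM, and all 7 were called lower with scaling to general endothelial genes. Under that scaling 83.6% of all genes were called lower.

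Of the 6 other KLF genes tested, 0 were called higher and 1 lower with TMM, and 4 were called lower with scaling to general endothelial genes. The shares over all genes were 23.3% higher and 21.4% lower with TMM, and 83.6% lower with the other scaling. Klf1, the erythroid KLF, was at 10.4 ± 4.09 CPM in Sca-1+ and 138 ± 87.9 CPM in Sca-1- (-3.74, SE 0.53, adjusted p = 0.000351, edgeR). A list of 15 erythroid genes summed to 130 to 275 CPM and to 1256 to 2801 CPM in the fractions, and its part in the Klf1 result was not tested. Klf14 and Klf17 had too few counts to be tested. Of the 6 SP genes tested, relatives of the KLF genes, only Sp2 was called (-0.92, adjusted p = 0.0385, edgeR), and its call was lost without any one of libraries 7, 13, 15, 10 or 14.

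Proliferation genes were lower in Sca-1+ and genes of quiescence were split. Of 18 proliferation genes, 17 were called lower and 0 higher, with a median of -2.54 in log2 with TMM and 18 called lower with scaling to general endothelial genes. Of all genes tested, 23.3% were called higher and 21.4% lower with TMM, and 83.6% lower with scaling to general endothelial genes. The mitotic kinase genes Plk1 and Aurkb differed by -3.80 and -3.52, the cyclin gene Ccnb1 by -3.79 and Ube2c by -3.44, while Pcna was at 0.67 (adjusted p = 0.0816, edgeR) and did not pass the test. The summed list was at 278 to 366 CPM in Sca-1+ and 654 to 1952 CPM in Sca-1-, lowest in Sca-1- library 8 within that fraction. Of 14 quiescence genes, 6 were called higher and 3 lower with TMM, and 0 higher and 10 lower with scaling to general endothelial genes. Cdkn1c, the cell cycle inhibitor p57, was at 516 ± 41.3 CPM in Sca-1+ and 28.5 ± 29.4 CPM in Sca-1-, Hes1, a Notch target, differed by 3.26 and the antiproliferative gene Tob1 by 2.76. Cdkn2d, which encodes another inhibitor, was lower in Sca-1+ with a log2 fold change of -3.03. The part of endothelial and other cell content in the proliferation and quiescence lists was not tested.

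Part of the genes that share inputs with Klf9, Klf10 and Klf11 were called higher in Sca-1+ with TMM and none with scaling to general endothelial genes. Of all genes tested, 23.3% were called higher and 21.4% lower with TMM, and 83.6% lower with the other scaling. Of 7 TGF-beta response genes, 5 were called higher and 0 lower with TMM, against 0 higher and 5 lower with the other scaling. Skil and Tgif1, repressors of SMAD signalling, differed by 2.67 and 2.62, Smad7 by 2.14 and Tgfbi by 1.53, whereas Smurf2 (-1.02) and Ltbp2 (-3.0) did not pass the test. The count called higher fell to 3 without any one of libraries 7, 13, 14, 16 or 22, and also with libraries 15 and 16 as a block, where Tgfbi had adjusted p = 0.0533 (edgeR). Of 9 glucocorticoid response genes, 5 were called higher and 0 lower with TMM, against 0 higher and 6 lower, and 2 were called lower with TMM without library 19. Sgk1 rose from 128 ± 47.1 to 2520 ± 441 CPM with TMM, Errfi1 and Cebpd differed by 3.34 and 3.09, and Nr3c1, the receptor itself, by 1.99 (SE 0.29, adjusted p = 0.000408, edgeR). Of the classic targets, Tsc22d3 (0.50), Fkbp5 (0.93), Per1 (-0.61) and Zbtb16 (-1.16) did not pass the test. Of 20 immediate-early and stress genes, 18 were called higher and 0 lower with TMM (median 2.71), against 0 higher and 9 lower. Dusp1 rose from 411 ± 107 to 4143 ± 795 CPM, and the heat shock gene Hspa1a was at 606 ± 558 CPM in Sca-1+ and 26.2 ± 21.1 CPM in Sca-1-. Klf2, Klf4, Klf6 and Klf10 are themselves known as early genes, and the part of what moved this list in their levels was not tested.

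**Figure D4:**
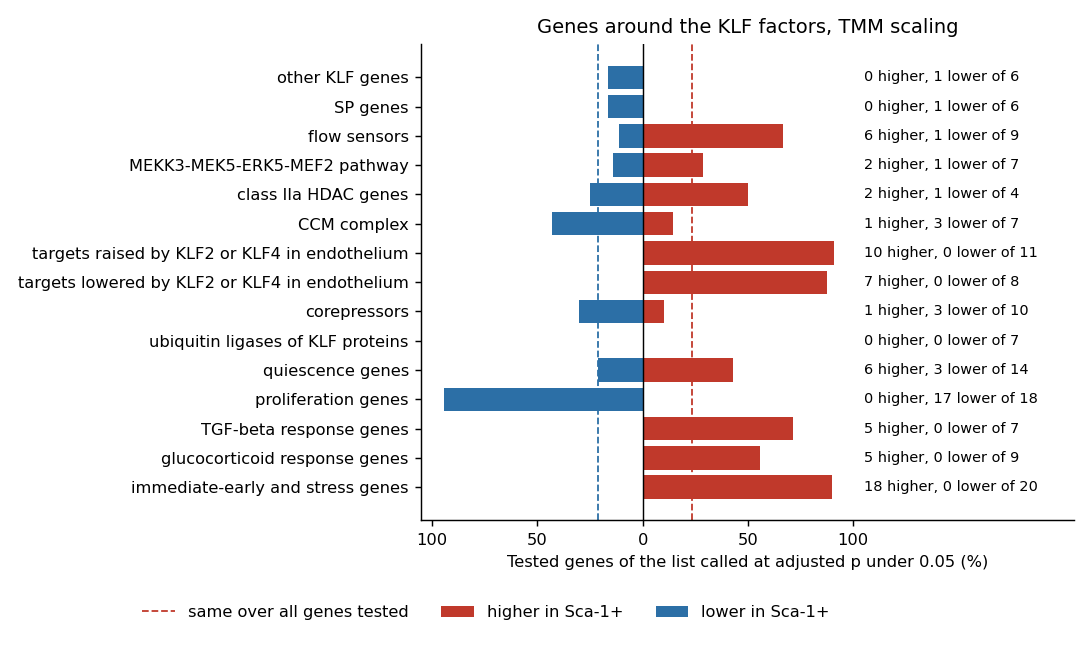
Percent of tested genes in each list called higher (right) or lower (left) in Sca-1+ with TMM scaling, with the counts beside each bar and dashed lines at 23.3% and 21.4%, the shares over all genes tested. The raised and lowered KLF2 and KLF4 targets and the immediate-early list lie to the right with 10 of 11, 7 of 8 and 18 of 20 genes, where scaling to general endothelial genes leaves 2, 1 and 0 called higher, and the proliferation list lies to the left with 17 of 18.

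Markers of other cells also moved with the fractions that the KLF genes were compared in. All 10 arterial genes were called higher in Sca-1+ with TMM, where 23.3% of all genes were, and 8 of 10 sinusoidal genes were called higher and 1 lower. With TMM 8 of 12 smooth muscle and pericyte genes were called higher and 1 lower, and 4 of 12 stromal and osteoblast genes higher and 3 lower. All 16 megakaryocyte genes, 12 of 14 general leukocyte genes and 11 of 15 erythroid genes were called lower in Sca-1+ with TMM, as were 2 of 13 neutrophil genes, and B and plasma cell genes were called 2 higher and 3 lower of 7. With scaling to general endothelial genes 5 arterial genes were called higher and 0 lower, 1 sinusoidal gene higher and 3 lower, 0 smooth muscle genes higher and 3 lower, and 1 stromal gene higher and 8 lower. Of all genes tested, 21.4% were called lower with TMM and 83.6% with scaling to general endothelial genes. Ptprc, which encodes CD45, averaged 0.843 ± 1.20 CPM in Sca-1+ and 28.9 ± 14.1 CPM in Sca-1-, and the erythroid gene Hbb-bs 33.0 ± 35.9 and 149 ± 143 CPM. The summed stromal list was at 725 to 3179 CPM in Sca-1+ and 3811 to 44084 CPM in Sca-1-, highest in library 8. The part of these cells in the KLF levels was not tested.

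**Figure D5:**
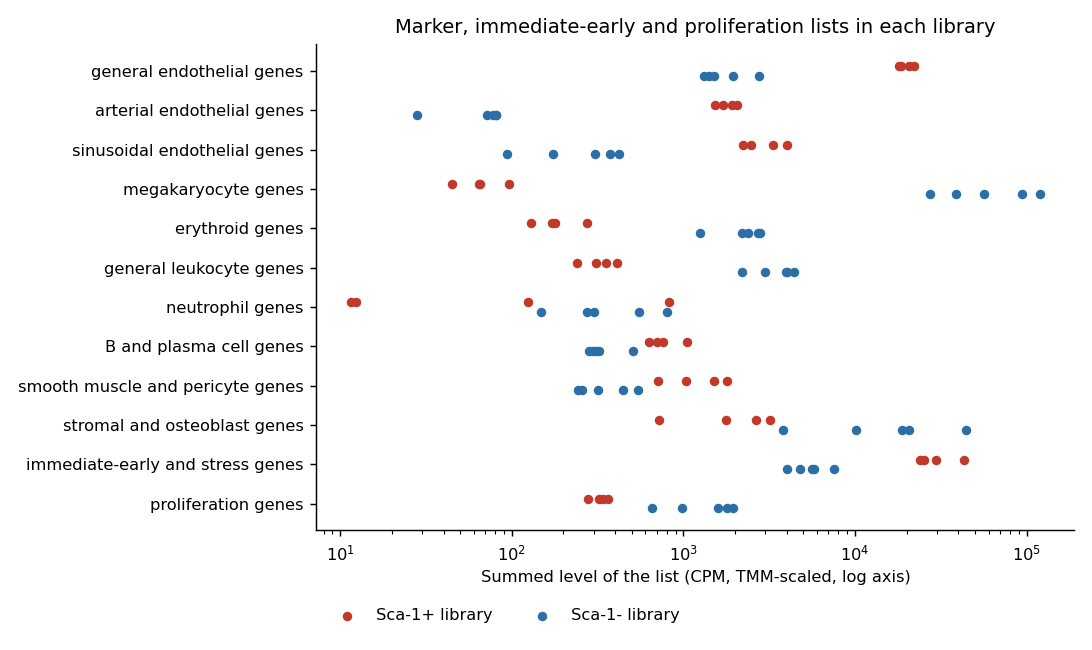
Summed level of each marker list in each library in TMM-scaled CPM on a log axis, with points for the 4 Sca-1+ and 5 Sca-1- libraries. General endothelial genes lie at 17987 to 21967 CPM in Sca-1+ and 1309 to 2773 CPM in Sca-1-, and megakaryocyte genes lie at 45 to 96.3 CPM and 27382 to 119538 CPM.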

How the data were processed

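RNA-seq was done on 9 libraries of bone marrow cells sorted as endothelial cells, made with the SMART-Seq v4 low input kit, which primes on poly(A) and adds no molecular identifiers, so the floors cover counting error only. The authors deposited whole-number read counts per gene, not normalized. The submitters' processing notes name STAR, featureCounts and mm10, and their versions and the use of strand are not given in the sources used here. Columns were matched to groups by the labels.

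Counts were analysed with R 4.3.3 and edgeR 4.0.16. Of 26424 genes with a count, 15937 passed filterByExpr (minimum count 10, minimum total 15) and were fitted over all 9 libraries with TMM, a common dispersion of 0.3009 (biological coefficient of variation 0.5486) and the two-sided quasi-likelihood F-test. P-values were adjusted by Benjamini-Hochberg across the 15937 genes, and 0.05 was the threshold. Standard errors came from the F statistic, and the prior count of log2 CPM was 2. The edgeR step was tested on simulated counts in which few genes were changed, with rises and falls drawn alike. That setting lacks the broad differences between these fractions, so it does not test the assumption of TMM here. Shares within the KLF genes were compared by an exact permutation test. Alternatives used DESeq2 1.42.0, limma 3.58.1, other scalings, filters and libraries. Figures were drawn with Python 3.11.15 and matplotlib 3.10.9.

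The KLF genes and the 15 pathway and 10 marker lists were chosen with earlier results of these data known, from general knowledge, and 296 of 297 symbols matched (Ccn2 did not). Named genes are the 9 KLF genes, up to 4 genes of each pathway list with the largest difference among those past the threshold at an average log2 CPM of at least 3, the 3 genes most like each KLF gene, and checks of the sort. Other list genes that are named (Gnaq, Mapk7, Mef2c, Krit1, Ccm2, Sin3a, Pcna, Smurf2, Ltbp2, Tsc22d3, Fkbp5, Per1, Zbtb16) were chosen after their values were seen. Positions and exon lengths are from GENCODE M21 on GRCm38, which held 45229 of the 46078 identifiers. Promoters are from RefSeq on GRCm38.p6, with 8 of the 9 KLF genes matched, and printed bases end before both annotated starts.

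No libraries of a fraction were duplicates, with a chi-square per degree of freedom between 2 libraries of the same fraction of 36.77 to 538.3. The deviations of libraries with consecutive end numbers correlated at r = 0.148 (7 and 8), 0.148 (13 and 14) and 0.0417 (15 and 16, which share a number in their titles). The other combinations lay between -0.191 (13 and 8) and 0.0649 (19 and 8). Each consecutive partner had the highest r for its Sca-1+ library. These small values do not settle whether the libraries are pairs. The main fit did not take them as pairs, and fits with such blocks are given below.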

Additional observations from a re-analysis of the deposited data

Results flagged for a closer look

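Single libraries that stood far from the others of their fraction by Dixon's criterion were found in 7 of 152 groups of libraries, and chance alone gives about 1 in 20. Sca-1+ library 19 was high in 4 of the 7. Its log2 CPM of Klf6 was 10.19 against 9.29 to 9.41 in the other Sca-1+ libraries, and that of Klf11 was 7.01 against 5.73 to 5.85. Mef2d was at 5.75 in library 19 against 5.13 to 5.21, and Trpv4 at 6.52 against 5.50 to 5.60. Sca-1- library 10 was low in the other direction, with the KLF target Slc9a3r2 at a log2 CPM of 4.28 against 5.67 to 6.03, and with the log2 summed CPM of the arterial list at 4.80 against 6.17 to 6.34. The log2 summed CPM of the B and plasma cell list was 8.99 in Sca-1- library 22 against 8.14 to 8.33.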

How the results depend on the processing

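The levels of Klf2, Klf4, Klf9 and Klf10 kept their direction and call under every alternative run except scaling to general endothelial genes, where Klf2 was -0.65, Klf4 0.056, Klf9 -1.95 and Klf10 -1.87. Under that scaling Klf11 was -1.98, Klf13 -2.85, Klf7 -3.31, Klf3 -3.56 and Klf6 -3.74, and 13603 of all genes were called. It also turned Trpv4 (-0.19), Map3k3 (-1.44), Map3k2 (-2.41), Hdac4 (-2.03), Hdac7 (-2.19), Heg1 (-0.78), Ctbp2 (-1.64), Hes1 (-0.37), Tob1 (-0.74), Skil (-0.92), Tgif1 (-1.03), Smad7 (-1.49), Tgfbi (-2.09), Errfi1 (-0.27), Cebpd (-0.58), Nr3c1 (-1.62) and Dusp1 (-0.17). With library size alone Klf13 was 1.07 and called, Klf3 0.39 and Klf6 0.19. Klf3 was 0.012 with limma voom, and Klf7 was -0.076 with DESeq2 and with its size factors in edgeR. Leaving out single libraries gave 2.47 to 3.02 for Klf2, 1.15 to 1.70 for Klf11, 0.46 to 0.82 for Klf13, -0.51 to 0.12 for Klf3, -0.77 to -0.07 for Klf6 and -0.18 to 0.35 for Klf7. Without Sca-1- libraries 8 and 10, chosen after seeing the data, Klf3 was 0.68, Klf7 0.70 and Klf6 0.67, and the shares of Klf10 and Klf11 differed by -0.75 and -0.14 percentage points. The share of Klf9 not divided by length differed by 2.03 percentage points (exact permutation p = 0.0317, n = 4 and 5). The cause was not tested.

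The titles of libraries 15 and 16 share a number before the tag wt, and no other pairing is stated. With a replicate block of libraries 7 and 8, 13 and 14, 15 and 16, 4340 genes were called and Klf11 was 1.43 without passing the test, and in the same 6 libraries without the block it was 1.26. A block of libraries 15 and 16 alone changed no call of a KLF gene. All KLF genes were above the floor of 3 counts in every library.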
